A study of Mus musculus with 11 samples.

Results

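The genes examined here encode the sensors that detect RNA and DNA in the cytosol. They were chosen by name, with no measured value in the rule but with earlier results of these data known: Ddx58 (RIG-I), Ifih1 (MDA5), Dhx58 (LGP2), Eif2ak2 (PKR) and Mavs for RNA, and Cgas, Tmem173 (STING) and Trex1 for DNA. All 8 were matched by Ensembl identifier in the gene annotation of mouse genome GRCm38, among 52636 genes listed, and 7 of them were among the 17243 genes with enough reads to test. The comparison set up by the 4 genotypes is whether RNA-sensing and DNA-sensing members changed alike in fetal livers that lack caspase-8.

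RIG-I and MDA5 bind double-stranded RNA or RNA with unprocessed ends and pass the signal to MAVS, an adaptor on mitochondria, which leads to transcription of type I interferon genes. LGP2 is a related helicase that lacks the signalling domains of RIG-I and MDA5 and tunes their activity. PKR is a kinase that binds double-stranded RNA and phosphorylates eIF2alpha, which lowers translation. On the DNA side, cGAS makes a cyclic dinucleotide when it binds DNA, STING relays that messenger to the same interferon genes, and TREX1 is an exonuclease that degrades cytosolic DNA. Most of the sensors are themselves known as interferon-stimulated genes.

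Each sample was the RNA of one liver of an E15.5 mouse embryo, on a C57BL/6N background and with no treatment: 3 WT, 2 Tnfr1-/-, 3 Casp8-/- Mlkl-/- and 3 Casp8-/- Tnfr1-/- livers. Both double knockouts lack caspase-8, a protease that holds back necroptosis. The first also lacks MLKL, which carries out necroptosis, and the second lacks the TNF receptor TNFR1, which the single knockout lacks too. The alleles are germline, so every cell of the embryo carries them, and no genotype lacks caspase-8 alone. The gene counts of a liver summed to 23129212 reads at the least and 35819339 at the most. Levels are given as CPM, the count divided by the size of the library, after TMM scaling, a correction for differences in RNA composition between libraries.

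Casp8 measured 27.7 to 33.9 CPM in the 5 livers with caspase-8, 7.82 to 10.2 in Casp8-/- Mlkl-/- and 11.5 to 21.9 in Casp8-/- Tnfr1-/- livers. Mlkl measured 0.73 to 1.22 CPM in Casp8-/- Mlkl-/- livers and at least 3.68 in every other liver. Tnfrsf1a, which encodes TNFR1, was counted at 49.8 and 50.5 CPM in the Tnfr1-/- livers and at 47.1 to 53.4 in WT, so the count over the whole gene does not check that label. Casp8-/- Tnfr1-/- replicate 3 stood apart: it had the lowest scaling factor (0.758), its highest correlation with another liver was 0.891, it held 425 CPM of Tnfrsf1a, and the 8 striated muscle markers summed to 1422 CPM in it against at most 31.7 elsewhere. It was also the only liver with Xist, a transcript of female cells, above 1 CPM (3409 CPM). Casp8-/- Mlkl-/- replicate 1 had the next lowest factor (0.812), and its 8 hepatocyte markers summed to 228374 CPM against 51396 to 107688 in the other livers. Calls of the sensors that were gained or lost without either liver are given both ways.

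Short stretches of promoter sequence are shown for the members that carry the motif GAAANNGAAA, a core of the element bound by interferon-activated transcription factors. Windows from 250 bases before to 50 after each annotated start were available from RefSeq for 6 of the 8 genes (assembly GRCm38.p6), and both strands were searched. The motif occurs in 3.44% of all 32851 windows of that length. It was found once each for Ddx58, Ifih1 and Eif2ak2, all RNA sensors, and not in the windows of Mavs, Cgas and Trex1. Dhx58 and Tmem173 were not searched. Each match begins just inside the annotated transcript, at base 3, 33 and 19 for the 3 genes, counting the first transcribed base as 1. The 30 bases around each match are given 5′ to 3′ on the strand of the gene (all 3 lie on the minus strand), with the matched letters in capitals. Ddx58 carries the motif on the opposite strand to the gene, at chr4:40239804-40239833, Ifih1 on the gene's strand at chr2:62646206-62646235 and Eif2ak2 on the gene's strand at chr17:78882535-78882564.
Ddx58: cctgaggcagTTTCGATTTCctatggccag
Ifih1: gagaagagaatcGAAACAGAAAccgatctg
Eif2ak2: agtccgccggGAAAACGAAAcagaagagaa
A match of letters describes the sequence only and is not a measurement of binding.

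Compared with WT, livers of Casp8-/- Tnfr1-/- embryos held more transcript of the RNA sensors Ddx58, Ifih1, Dhx58 and Eif2ak2 and of both measured genes of the DNA pathway, and less of the adaptor Mavs. Of the 7 members tested, 6 were called higher, where 5.1% of all genes tested were, and 1 was called lower, where 0.702% were (edgeR's quasi-likelihood test, Benjamini-Hochberg adjusted p under 0.05 over all genes). Against Tnfr1-/- livers 5 were higher (2.05% of all genes), and against Casp8-/- Mlkl-/- livers 5 were higher (1.54% of all genes). These comparisons share the 3 Casp8-/- Tnfr1-/- livers. In RNA from whole livers, fewer cells of a type and less RNA per cell cannot be told apart.

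**Figure D1:**
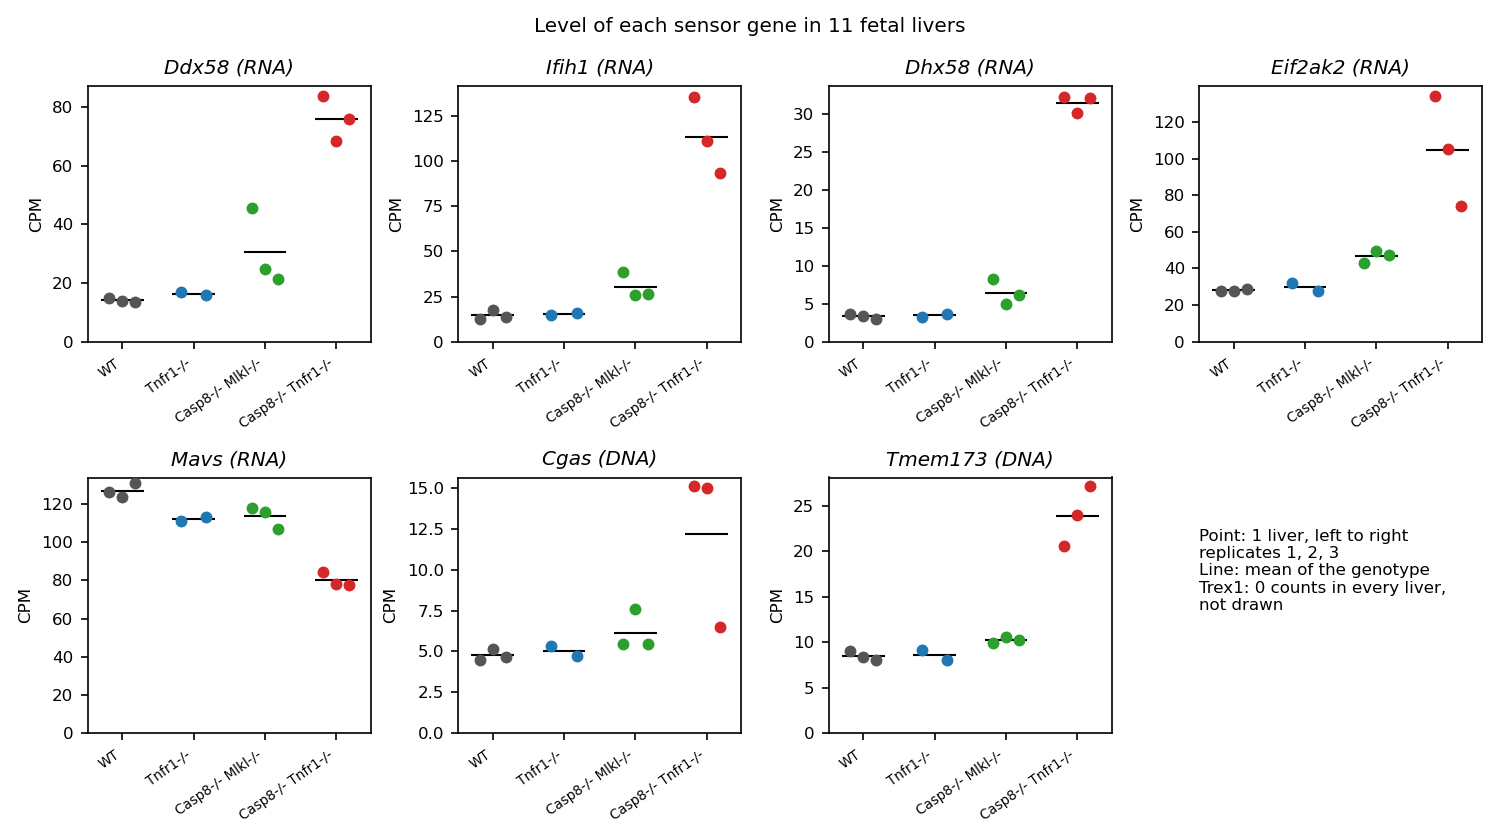
Level of each sensor gene (y axes, CPM from 0) in the 11 livers, grouped by genotype, with 1 point per liver and a line at the mean. Dhx58 lies at 30.2 to 32.2 CPM in the Casp8-/- Tnfr1-/- livers and at most at 8.19 elsewhere, Mavs is lowest in that genotype, and the Cgas points of that genotype are split between 15.1, 15.0 and 6.496.

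Among the receptors, Ddx58 lies on chromosome 4 (40203773 to 40239828). It measured 14.9, 13.9 and 13.5 CPM in WT, 16.7 and 15.99 in Tnfr1-/-, 45.5, 24.7 and 21.4 in Casp8-/- Mlkl-/- and 83.7, 68.4 and 75.8 in Casp8-/- Tnfr1-/- livers. Every Casp8-/- Tnfr1-/- liver was above every other liver, and every Casp8-/- Mlkl-/- liver was above the 5 livers with caspase-8. The log2 fold change of Casp8-/- Tnfr1-/- livers was 2.43 (SE 0.26, edgeR adjusted p = 8.69e-04) against WT, 2.21 (SE 0.30, adjusted p = 0.00539) against Tnfr1-/- and 1.32 (SE 0.25, adjusted p = 0.0352) against Casp8-/- Mlkl-/- livers. The last call was lost in 8 of the 11 fits made with a liver omitted. Casp8-/- Mlkl-/- replicate 1, the highest of its genotype, bears on it most, since without it that log2 fold change was 1.72 (adjusted p = 7.81e-04).

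Ifih1, on chromosome 2 (62595798 to 62646255), measured 12.7, 17.4 and 13.9 CPM in WT, 14.8 and 15.9 in Tnfr1-/-, 38.8, 25.7 and 26.4 in Casp8-/- Mlkl-/- and 136, 111 and 93.6 in Casp8-/- Tnfr1-/- livers. The genotypes kept the order seen for Ddx58, with WT and Tnfr1-/- livers overlapping. The log2 fold changes were 2.95 (SE 0.22, edgeR adjusted p = 1.02e-04) against WT, 2.89 (SE 0.26, adjusted p = 5.31e-04) against Tnfr1-/- and 1.91 (SE 0.21, adjusted p = 0.00246) against Casp8-/- Mlkl-/- livers. All 3 calls held in each of the 11 fits with a liver omitted.

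Dhx58, on chromosome 11 (100694884 to 100704271), had the largest log2 fold change of the members against each of the 3 other genotypes in Casp8-/- Tnfr1-/- livers. It measured 3.65, 3.35 and 2.998 CPM in WT, 3.28 and 3.65 in Tnfr1-/-, 8.19, 4.998 and 6.11 in Casp8-/- Mlkl-/- and 32.2, 30.2 and 32.1 in Casp8-/- Tnfr1-/- livers. The 3 Casp8-/- Tnfr1-/- livers lay close together and far above the rest. Counts of Dhx58 were low in the other 8 livers, 76 to 202, and 563 to 1057 in these 3. The log2 fold changes were 3.24 (SE 0.21, edgeR adjusted p = 6.43e-05), 3.18 (SE 0.25, adjusted p = 2.47e-04) and 2.29 (SE 0.20, adjusted p = 7.14e-04) against WT, Tnfr1-/- and Casp8-/- Mlkl-/- livers, and all 3 calls held whichever liver was left out. An annotated antisense gene, Dhx58os, overlaps 4.31% of its exonic bases, and the use of strand in the counting was not given in the sources used here.

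Eif2ak2, on chromosome 17 (78852564 to 78882573), encodes PKR, and 4.32% of its exonic bases overlap genes on the other strand. It measured 27.8, 27.7 and 28.9 CPM in WT, 31.9 and 27.4 in Tnfr1-/-, 42.7, 49.7 and 47.2 in Casp8-/- Mlkl-/- and 135, 105 and 74.0 in Casp8-/- Tnfr1-/- livers. The 2 double knockouts did not overlap, although replicate 3 of the Casp8-/- Tnfr1-/- livers was well below the other two. The log2 fold changes were 1.89 (SE 0.20, edgeR adjusted p = 7.97e-04) against WT, 1.82 (SE 0.23, adjusted p = 0.00378) against Tnfr1-/- and 1.17 (SE 0.20, adjusted p = 0.0194) against Casp8-/- Mlkl-/- livers. The last was lost in 4 of these 11 fits, without either Tnfr1-/- liver or Casp8-/- Mlkl-/- replicate 2 or 3, and was 1.37 (adjusted p = 6.84e-04) without Casp8-/- Tnfr1-/- replicate 3. The calls of Ddx58 and Eif2ak2 against Tnfr1-/- livers were lost when either Tnfr1-/- liver was omitted (edgeR adjusted p up to 0.132 for Ddx58 and 0.138 for Eif2ak2), although the log2 fold changes stayed at 2.17 to 2.23 and 1.71 to 1.92. In such fits the lone Tnfr1-/- liver is assumed to vary like the livers of the other genotypes.

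Mavs, the adaptor that RIG-I and MDA5 share, moved the other way. It lies on chromosome 2 (131234063 to 131248025) and measured 126, 124 and 131 CPM in WT, 111 and 113 in Tnfr1-/-, 118, 116 and 107 in Casp8-/- Mlkl-/- and 84.5, 78.3 and 77.5 in Casp8-/- Tnfr1-/- livers. All 3 Casp8-/- Tnfr1-/- livers were below the other 8. Against WT the log2 fold change was -0.67 (SE 0.11, edgeR adjusted p = 0.00738), a level 1.59-fold lower. Without WT replicate 3 the adjusted p of that comparison was 0.0559. Against Tnfr1-/- and Casp8-/- Mlkl-/- livers the log2 fold changes of -0.49 and -0.50 did not pass (edgeR adjusted p = 0.0741 and 0.0523). Both passed without Casp8-/- Tnfr1-/- replicate 3 (adjusted p = 0.0204 and 0.0177), and both passed without Casp8-/- Mlkl-/- replicate 1 (adjusted p = 0.0308 and 0.0431).

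On the DNA side, Cgas lies on chromosome 9 (78430526 to 78443237). It measured 4.49, 5.16 and 4.65 CPM in WT, 5.33 and 4.71 in Tnfr1-/-, 5.43, 7.58 and 5.47 in Casp8-/- Mlkl-/- and 15.1, 15.0 and 6.496 in Casp8-/- Tnfr1-/- livers. Replicate 3 of the last genotype lay below Casp8-/- Mlkl-/- replicate 2, so these genotypes overlapped. The log2 fold change against WT was 1.36 (SE 0.31, edgeR adjusted p = 0.0330), and this call was lost in 8 of these 11 fits, namely without any 1 of the WT livers, either Tnfr1-/- liver, Casp8-/- Mlkl-/- replicate 3 or Casp8-/- Tnfr1-/- replicate 1 or 2 (adjusted p up to 0.137). Against Tnfr1-/- it was 1.28 (SE 0.35, adjusted p = 0.110) and against Casp8-/- Mlkl-/- livers 0.99 (SE 0.31, adjusted p = 0.168). Without Casp8-/- Tnfr1-/- replicate 3 the 3 values were 1.67, 1.58 and 1.29, and all passed (adjusted p = 5.45e-04, 0.00199 and 0.00415). Counts of Cgas were low, between 114 and 496 per liver, and 4.87% of its exonic bases overlap Gm8093 on the other strand.

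Tmem173, on chromosome 18 (35733679 to 35740554), encodes the adaptor of the DNA pathway. It measured 8.99, 8.43 and 8.09 CPM in WT, 9.19 and 8.01 in Tnfr1-/-, 9.93, 10.6 and 10.3 in Casp8-/- Mlkl-/- and 20.6, 24.0 and 27.2 in Casp8-/- Tnfr1-/- livers. Here replicate 3 was the highest of its genotype, the reverse of its place for Cgas, Ifih1 and Eif2ak2. The log2 fold changes were 1.49 (SE 0.16, edgeR adjusted p = 7.53e-04), 1.47 (SE 0.18, adjusted p = 0.00282) and 1.22 (SE 0.15, adjusted p = 0.00496) against WT, Tnfr1-/- and Casp8-/- Mlkl-/- livers. The first and the last held in all 11 such fits, and the call against Tnfr1-/- was lost without either Tnfr1-/- liver (adjusted p up to 0.0869, log2 fold change 1.36 and 1.56). Thus the adaptor of the DNA pathway was higher and the adaptor of the RNA pathway lower in the same 3 livers.

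Trex1 was listed at 0 counts in all 11 livers. It lies on chromosome 9 (109057933 to 109059734), and 100% of its exonic bases lie within exons of Atrip on the same strand, with which it shares 95.8% of its 50-base stretches. Atrip itself held only 13 to 53 counts per liver. Of 687 genes whose exons lie wholly within exons of other genes on the same strand, 75.5% were at 0 in every liver, against 43.9% of all 52403 annotated genes. The files therefore give no level for Trex1, and no fold is given.

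**Figure D2:**
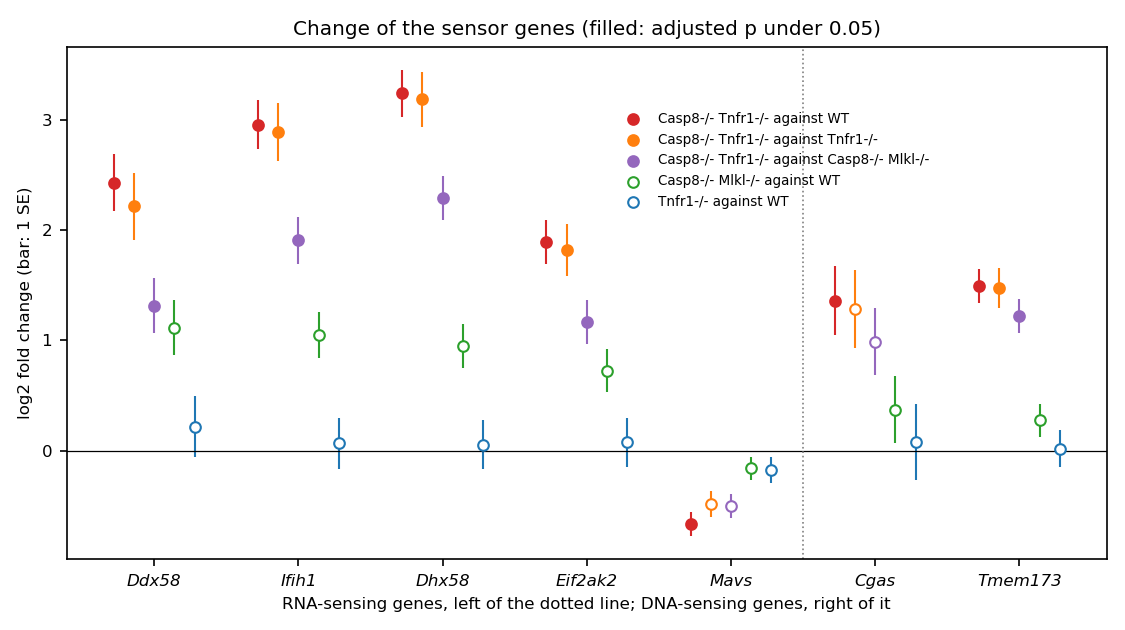
Log2 fold changes (y axis, bars 1 SE) of the 7 measured members (x axis) in 5 comparisons of genotypes, with filled points at an adjusted p under 0.05. Against WT the values run from 3.24 for Dhx58 to -0.67 for Mavs, and all Tnfr1-/- points lie between -0.18 and 0.22.

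Each member was also compared between the 3 Casp8-/- Tnfr1-/- livers and the other 8. An exact permutation test, two-sided and on log2 CPM, gave p = 0.00606 for 6 members, the smallest that 165 splits allow, and p = 0.0121 for Cgas. These are 7 tests, with no adjustment. Of the 7 members, 5 were higher in each of the 3 livers than in the other 8, which held for 7.43% of all genes tested, and 1 was lower in each, which held for 3.32%.

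In Casp8-/- Tnfr1-/- livers the 4 RNA genes other than Mavs each had a larger log2 fold change than either DNA gene against WT and against Tnfr1-/- livers. Against Casp8-/- Mlkl-/- livers Eif2ak2 (1.17) was below Tmem173 (1.22). Against WT the median log2 fold change was 2.69 for Ddx58, Ifih1, Dhx58 and Eif2ak2, 6.46-fold, and 1.43 for Cgas and Tmem173, 2.69-fold, beside -0.0015 over all genes tested. With Mavs among the RNA members that median was 2.43. Against Tnfr1-/- livers the medians of the 4 RNA and 2 DNA genes were 2.55 and 1.38, and against Casp8-/- Mlkl-/- livers they were 1.61 and 1.10. Without Casp8-/- Tnfr1-/- replicate 3 the medians against WT were 2.76 and 1.53. The difference was also taken within each liver. The mean log2 CPM per kb of the 4 RNA genes exceeded that of the 2 DNA genes by 0.56, 0.56 and 0.55 in WT, by 0.53 and 0.71 in Tnfr1-/-, by 1.60, 0.82 and 1.09 in Casp8-/- Mlkl-/- and by 1.92, 1.56 and 1.94 in Casp8-/- Tnfr1-/- livers. All 6 livers without caspase-8 were above the 5 livers with it, and Casp8-/- Mlkl-/- replicate 1 fell within the range of the Casp8-/- Tnfr1-/- livers. With Mavs among the RNA genes the excess was 1.31, 1.29 and 1.32 in WT, 1.22 and 1.41 in Tnfr1-/-, 2.08, 1.39 and 1.64 in Casp8-/- Mlkl-/- and 1.98, 1.65 and 2.06 in Casp8-/- Tnfr1-/- livers. The Casp8-/- Tnfr1-/- livers were then still above the 5 livers with caspase-8, but Casp8-/- Mlkl-/- replicate 2 was not. With 2 DNA genes this difference describes these genes and not the pathways as a whole, and it was given no test.

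**Figure D3:**
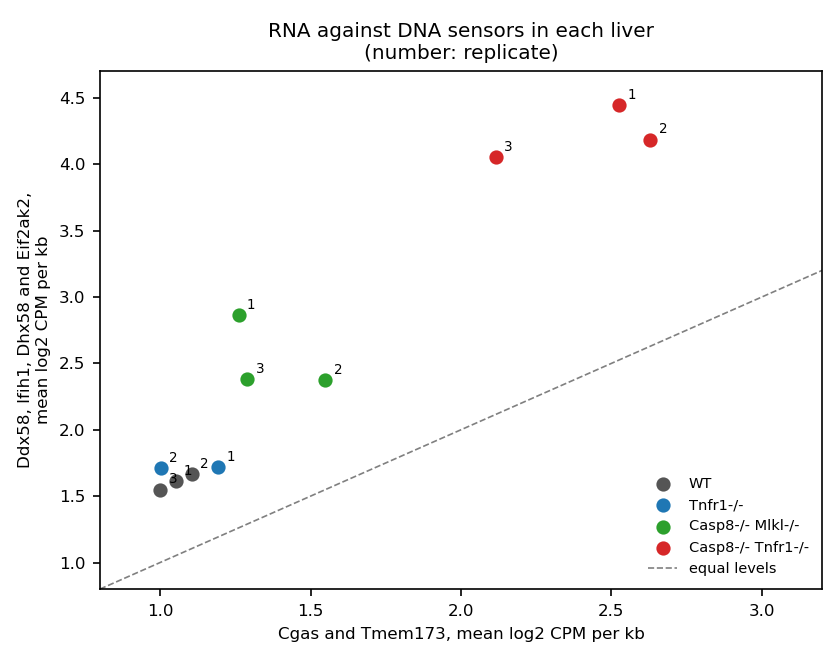
Mean log2 CPM per kb of Ddx58, Ifih1, Dhx58 and Eif2ak2 (y axis) against that of Cgas and Tmem173 (x axis), with 1 numbered point per liver and a dashed line where both are equal. The Casp8-/- Tnfr1-/- livers lie 1.56 to 1.94 above that line, the WT livers 0.55 to 0.56 and the Casp8-/- Mlkl-/- livers 0.82 to 1.60. Mavs is left out; with it the distances are 1.65 to 2.06, 1.29 to 1.32 and 1.39 to 2.08.

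Levels of different genes are compared as CPM per kb of the length in the files. In WT livers the order was Mavs (39.98 to 42.4), Eif2ak2 (6.43 to 6.69), Tmem173 (3.51 to 3.90), Ddx58 (3.47 to 3.85), Ifih1 (2.32 to 3.17), Dhx58 (1.24 to 1.51) and Cgas (1.10 to 1.26). Of neighbours in this order, Tmem173 overlapped Ddx58, and Dhx58 overlapped Cgas. Mavs was thus above either receptor that it serves. In Casp8-/- Tnfr1-/- livers the levels per kb were 25.0 to 27.3 for Mavs, 17.2 to 31.2 for Eif2ak2, 17.1 to 24.8 for Ifih1, 17.6 to 21.6 for Ddx58, 12.5 to 13.4 for Dhx58, 8.96 to 11.8 for Tmem173 and 1.59 to 3.71 for Cgas. The range of Eif2ak2 then covered that of Mavs, and Ifih1 and Ddx58 overlapped. Mavs made up 67.2% to 69.5% of the summed level per kb of the 7 members in WT livers, 63.1% and 65.2% in the Tnfr1-/- livers, and 50.2% to 54.6% in the Casp8-/- Mlkl-/- livers. In Casp8-/- Tnfr1-/- livers it made up 20.8% to 23.7%. The share of Cgas ranged from 1.51% to 3.22% in Casp8-/- Tnfr1-/- livers, around the 1.84% to 2.12% of WT livers.

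**Figure D4:**
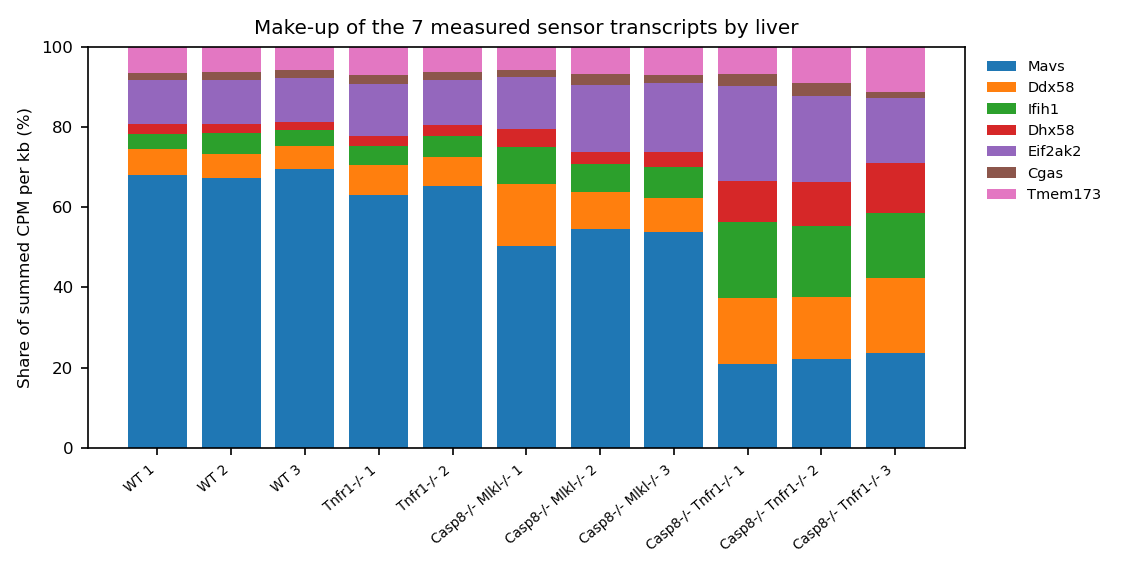
Share of each measured member in the summed CPM per kb of all 7 (y axis, percent) in each of the 11 livers (x axis). Mavs takes 67.2% to 69.5% in WT livers and 20.8% to 23.7% in Casp8-/- Tnfr1-/- livers.

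Casp8-/- Mlkl-/- livers, which lack caspase-8 but cannot undergo MLKL-driven lysis, held intermediate levels of the RNA receptors. Against WT the log2 fold changes were 1.12 for Ddx58, 1.05 for Ifih1, 0.95 for Dhx58 and 0.73 for Eif2ak2, and 0.37 for Cgas, 0.27 for Tmem173 and -0.16 for Mavs. Replicate 1 was the highest of the genotype for Ddx58, Ifih1 and Dhx58 and the lowest for Eif2ak2, Cgas and Tmem173, and without it the value of Ddx58 was 0.71. In edgeR 0 of the 7 were called (adjusted p 0.310 to 0.927, with 0.0058% of all genes called). At an unadjusted p under 0.05 there were 4, the RNA receptors and PKR, where 5.63% of all genes were. DESeq2's Wald test called 3 of them (Ddx58, Ifih1 and Dhx58), with 0.532% of all genes called, and limma-voom called 0. In 6 of the 7 members, all but Mavs, the 3 Casp8-/- Mlkl-/- livers were above all 5 livers with caspase-8, which held for 5.61% of all genes. With both livers that stand apart left out, an alternative chosen after the data were seen, all 4 RNA genes were called (log2 fold changes 0.72 for Ddx58, 0.83 for Ifih1, 0.73 for Dhx58 and 0.79 for Eif2ak2, edgeR adjusted p up to 0.0118). In that fit 6.4% of all genes were called.

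Tnfr1-/- livers were compared with WT to see what loss of TNFR1 alone did. The log2 fold changes of the 7 members lay between -0.18 and 0.22 with SE from 0.12 to 0.34, and 0 were called by edgeR, DESeq2 or limma-voom (0% of all genes called in edgeR), with 0 members at an unadjusted p under 0.05. A p that misses the threshold does not show that the levels were equal.

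Around the sensors, most signalling partners were not called with all 11 livers in the fit. Of all genes tested, 5.1% rose in Casp8-/- Tnfr1-/- against WT livers and 0.702% fell. Of 32 tested genes of RIG-I-like receptor signalling and its regulators, 4 rose in that comparison, 0 fell, and the median log2 fold change was 0.01. Those that rose were Irf7, a transcription factor of interferon genes that is itself induced by interferon (4.67), Ikbke, which encodes the kinase IKK-epsilon (1.21), Tbkbp1, which encodes a partner of the kinase TBK1 (0.91), and Trim25, a ubiquitin ligase that acts on RIG-I (0.87). Irf7 measured 7.14 to 7.71 CPM in WT, 19.6 to 46.4 in Casp8-/- Mlkl-/- and 156 to 227 in Casp8-/- Tnfr1-/- livers. With all 11 livers in the fit it was the only one of the list called against Casp8-/- Mlkl-/- livers (log2 fold change 2.70, edgeR adjusted p = 0.00300), where 1.54% of all genes rose. Without Casp8-/- Tnfr1-/- replicate 3, Trim25 and Ikbke were called there as well (0.47 and 0.87), where 2.83% of all genes rose. Against Tnfr1-/- livers 2 of the list were called with all 11 livers in the fit, where 2.05% of all genes rose.

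Of 31 genes that sense or handle DNA beside cGAS and STING, 30 were tested and 3 rose against each of the 3 other genotypes: Zbp1, a sensor of left-handed nucleic acid (5.64 against WT), and the interferon-inducible Ifi204 (2.90) and Ifi203 (2.12). The list's median against WT was -0.16. Of all genes, 5.1%, 2.05% and 1.54% rose against WT, Tnfr1-/- and Casp8-/- Mlkl-/- livers. Zbp1 ranged from 0.394 to 0.807 CPM over WT livers, and from 27.1 to 35.8 CPM over Casp8-/- Tnfr1-/- livers. Of 18 enzymes that limit self nucleic acid, 14 were tested and 2 rose in all 3 comparisons. These were Adar, which edits adenosines in double-stranded RNA (1.83 against WT, SE 0.12, edgeR adjusted p = 6.43e-05), and Samhd1, which hydrolyses dNTPs (1.23, SE 0.13, adjusted p = 8.76e-04). The median of the 14 was -0.04. Among 19 eIF2alpha kinases and genes of the stress response, only Atf3 rose against WT (4.51, SE 0.86, adjusted p = 0.0148, edgeR), where 5.1% of all genes rose, and the median over the list was 0.01. Atf3 measured 113 CPM in Casp8-/- Tnfr1-/- replicate 3 and 12.3 and 14.9 in the other livers of that genotype, and without replicate 3 its log2 fold change was 2.74 (SE 0.33, adjusted p = 0.00129). In these 4 lists 0 genes fell in these comparisons, and 0 were called in Casp8-/- Mlkl-/- or Tnfr1-/- against WT livers, all with the 11 livers in the fit. Without Casp8-/- Tnfr1-/- replicate 3 all list genes that had risen against WT still did, together with Nlrx1 and Pnpt1, and Rnaseh2a, Dnase1l1 and Ppp1r15a fell. These last 5 genes are named for that change, after their values were seen. Of all genes in that fit, 7.28% rose against WT, and 435 of 17027 fell. In the same fit Adar passed in Casp8-/- Mlkl-/- against WT livers (0.64, edgeR adjusted p = 0.0290), where 0.159% of all genes were called. With both livers that stand apart left out, 6.4% of all genes were called in that comparison. Of the receptor signalling list 3 rose there, Irf7 most (1.48). In the DNA list 1 rose and 3 fell, among the enzymes 1 rose (Adar), and of the stress list 2 fell. For Casp8-/- Tnfr1-/- against WT livers 31.3% of all genes were called in that fit. Of the 32 receptor signalling genes 9 rose and 2 fell, and of the 30 DNA genes 5 rose and 5 fell. Among the 14 enzymes 5 rose and 5 fell, and of the 19 stress genes 5 rose and 4 fell.

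**Figure D5:**
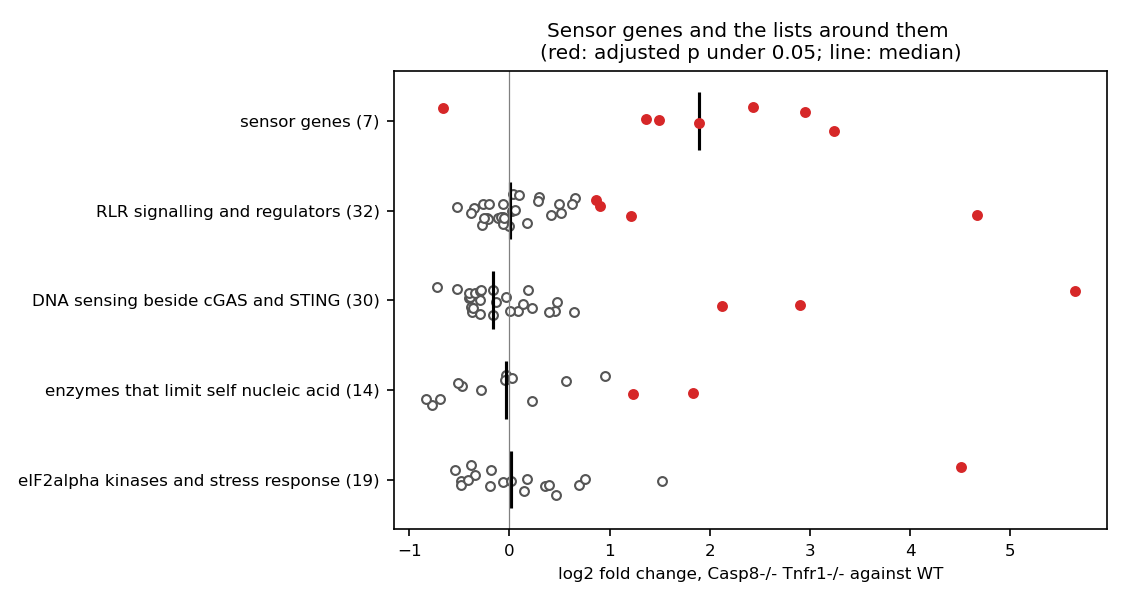
Log2 fold change of Casp8-/- Tnfr1-/- against WT livers (x axis) for the 7 sensor genes and 4 lists of genes around them (rows, number tested in brackets), red at an adjusted p under 0.05, with a line at each median. The sensors have a median of 1.89 and the 4 lists medians of -0.16 to 0.01, with Zbp1 (5.64) and Irf7 (4.67) farthest to the right.

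Interferon genes, the usual output of these pathways, were hardly counted. Of 21 matched, 0 had enough reads to test and 16 were at 0 in every liver. The highest count was 3, for Ifng, and Ifnb1 reached 1 count in any liver. A gene at 0 may hold up to 3 counts by counting error, which is 0.0838 to 0.130 CPM in these libraries before scaling, so lower levels were not detectable at this depth.

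The genes whose log2 CPM followed each member most closely over the 11 livers are given as a description, since all points share the same 4 genotypes. They were Arl5c (r = 0.993), Igtp and Tgtp1 for Ddx58, Parp14 (0.995), Gbp2 and Nlrc5 for Ifih1, and Parp9 (0.994), Ifitm3 and Zbp1 for Dhx58. For Eif2ak2 they were Adar (0.981), Rnf213 and Elmo1. For the DNA members they were Nin (0.986), Ctsc and Pak2 with Cgas, and Ccl2 (0.993), Acod1 and Elf4 with Tmem173. Mavs had the loosest match, with Fbxo8 (0.951), Tmem64 and Gm20033. Between members, r was highest for Ifih1 with Dhx58 (0.987), and the 2 DNA genes, Cgas and Tmem173, had an r of 0.780.

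Markers of other cells moved with genotype as well. Of 8 neutrophil markers, 4 rose in Casp8-/- Tnfr1-/- against WT livers, and their summed level was 5104 to 14787 CPM in that genotype. The sum was 1062 to 1530 CPM in WT livers, 1269 to 1315 CPM without TNFR1 alone and 1217 to 3351 CPM in the Casp8-/- Mlkl-/- livers. With all 11 livers in the fit 5.1% of all genes rose against WT and 0.702% fell. In that fit 1 of the 8 neutrophil markers rose against Tnfr1-/- livers, where 2.05% of all genes did. Against Casp8-/- Mlkl-/- livers 0 rose, where 1.54% did. Without Casp8-/- Tnfr1-/- replicate 3, 6 of the 8 neutrophil markers were called against WT, where 7.28% of all genes rose. Then 3 were called against Tnfr1-/- livers (4.46% of all genes rose) and 1 against Casp8-/- Mlkl-/- livers (2.83%). That replicate, with the highest of these sums, had the lowest Ifih1, Eif2ak2, Cgas and Mavs of its genotype and the highest Tmem173. Of 10 macrophage markers 1 rose (Cd68) and 2 fell (Marco and Clec4f), and the sum was 293 to 400 CPM in Casp8-/- Tnfr1-/- against 458 to 584 in WT livers, and 522 to 565 CPM without TNFR1 alone. Neither fall was called without Casp8-/- Tnfr1-/- replicate 3 (edgeR adjusted p = 0.0764 and 0.0537), and both were with Casp8-/- Mlkl-/- replicate 1 left out as well (adjusted p = 6.73e-05 and 4.44e-07). In the fit without both livers, 31.3% of all genes were called against WT, and 6 of the 10 macrophage markers fell and 1 rose. Clec4f (log2 fold change -4.78) and Vsig4 (-3.89) fell in Casp8-/- Mlkl-/- against WT livers as well in that fit. In that comparison 3 of the 10 rose, and 6.4% of all genes were called. In Casp8-/- Mlkl-/- livers the macrophage sum was 574 to 1366 CPM, highest in replicate 1. That replicate also held the most Ddx58, Ifih1 and Dhx58 of its genotype. With all 11 livers in the fit, 3 of the 10 markers were lower in Casp8-/- Tnfr1-/- than in Casp8-/- Mlkl-/- livers. Of all 17243 genes tested, 20 were lower there. Among 6 endothelial markers 1 rose (Pecam1), with a sum of 340 to 650 CPM against 337 to 380 in WT. Pecam1 was also called without replicate 3 (log2 fold change 0.74). With all 11 livers in the fit, none of 8 hepatocyte, 8 erythroid and 8 striated muscle markers was called against WT. With both livers that stand apart left out, all 8 erythroid markers fell, 5 hepatocyte markers fell and 1 rose, and 1 muscle marker rose. Without Casp8-/- Tnfr1-/- replicate 3 alone, 1 erythroid marker fell, where 435 of 17027 genes fell. Without Casp8-/- Mlkl-/- replicate 1 alone, 3 erythroid markers fell and 1 hepatocyte marker rose. In that fit 368 of 17081 genes fell and 7.29% rose. No marker of any list was at 0 in every liver. The hepatocyte markers summed to 51396 CPM or more in every liver, so the labelled tissue was present in each. The part of these shifts in the levels of the sensors was not tested.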

How the data were processed

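RNA of 11 E15.5 livers was sequenced as single-end reads. Alignment was done by the authors with GSNAP to GRCm38, and they deposited, per liver, a raw count of reads on each Ensembl gene, a length in bases and an RPKM value. The labels and the study's methods name different library kits and sequencers. The RPKM values deposited by the authors were not used in any test. Counts as deposited were kept by filterByExpr (minimum count 10), scaled by TMM and fitted with the 4 genotypes together by edgeR's quasi-likelihood test (edgeR 4.0.16, R 4.3.3), with Benjamini-Hochberg adjustment over 17243 genes and a threshold of 0.05. A prior count of 2 entered log2 CPM. Positions came from the annotation of GRCm38. Floors of 3 counts cover counting error only. Each liver is 1 embryo; litters are not given in the sources used here. The members and lists were chosen with earlier results of these data known, and processed as they were there. Named genes are the members, the 3 genes most correlated with each, the list genes called against WT and the targeted genes; Xist and the single cell type markers were named after their values were seen. Code was tested on simulated data. Alternatives were DESeq2 size factors, no filter, DESeq2 1.42.0, limma-voom (limma 3.58.1), fits of 2 genotypes only, a replicate block, each liver left out in turn and, added after the data were seen, both livers that stand apart left out and the lists and class medians without either.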

Additional observations from a re-analysis of the deposited data

How the results depend on the processing

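The number of members called against WT was 7 and stayed at 5 or more in every alternative run; Cgas was the member lost under limma-voom, the replicate block and the fit of 2 genotypes (adjusted p = 0.0514, 0.0562 and 0.108). Against Tnfr1-/- livers it was 5 and fell to 3 when only the 2 genotypes compared were fitted. Against Casp8-/- Mlkl-/- livers it was 5 and fell to 0 in that fit. When each liver was left out in turn, the count was 5 to 7 against WT, 2 to 7 against Tnfr1-/- and 3 to 7 against Casp8-/- Mlkl-/- livers. For Casp8-/- Mlkl-/- against WT livers it was 0, and it was 3 with DESeq2's Wald test and 4 with both livers that stand apart left out. Signs changed for Tnfr1-/- against WT livers only, where all values were near 0. With the replicate block the log2 fold change was -0.026 for Ifih1 and -0.089 for Cgas. With each liver left out it ran from -0.022 to 0.207 for Ifih1, from -0.022 to 0.129 for Dhx58, from -0.041 to 0.179 for Eif2ak2, from -0.018 to 0.162 for Cgas and from -0.086 to 0.113 for Tmem173. The cause was not tested. Between livers with the same replicate number, deviations from the genotype mean had an r from -0.30 to 0.27. With 2 or 3 livers a genotype these values cannot decide whether the replicate numbers pair the livers, and litters are not given. Over all genes, the calls higher against WT were 879 in the fit reported, 1775 with DESeq2's Wald test, 451 with only 2 genotypes, 532 with the replicate block, 270 to 1297 with a liver left out and 3017 with both livers that stand apart left out. The calls against Tnfr1-/- and Casp8-/- Mlkl-/- livers, 353 and 265 higher, moved to 1107 and 785, to 53 and 10, to 182 and 130, to 29 to 759 and 71 to 518, and to 2354 and 2032 in the same order. With 2 or 3 livers a genotype and Cgas at 114 to 496 counts, a change that was not called is not shown to be absent. Calls did not follow size alone: Mavs at -0.67 was called against WT, and Cgas at 1.28 was not against Tnfr1-/- livers.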
